A study of Mus musculus with 6 samples.

Results

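Lifr, the receptor of leukemia inhibitory factor, was examined together with the cytokines, receptors and signalling genes around gp130, the receptor chain encoded by Il6st. The family held 10 genes, namely Lifr, Lif, Il6st, Osmr, Osm, Il6ra, Il11ra1, Cntfr, Stat3 and Socs3. Each was read from the brightest probe set, by its mean over 6 arrays, that the platform annotation assigns to that gene alone. This rule gave a value for 9 of the 10 genes, of 22180 genes measured in all. Il11ra1, the receptor of interleukin 11, had 0 probe sets of its own and is not analysed here. The members were chosen by their place around gp130, with the low level of Lifr in tumours of Stat2 KO hosts already known, and their probe sets by the mean level over the 6 arrays. The values of Lifr are therefore a description and not an independent result.

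The samples were 6 tumours of B16-F1 cells, a pigmented mouse melanoma line. The cells had been inoculated into Stat2 KO mice (3 tumours) or WT mice (3 tumours), both of the C57BL6 background, and the tumours were taken at day 20. Stat2 encodes a transcription factor of the type I interferon response, and the genotype is that of the host: the labels do not give the implanted cells as lacking Stat2. The sources used here do not give the Stat2 allele, the age of the mice or whether each tumour came from a mouse of its own, so the p-values cover only the spread among these tumours. Biotin-labelled RNA of each tumour was read on 1 Affymetrix array, and all levels below are log2 expression values.

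Cytokines of the interleukin 6 family signal through gp130. Leukemia inhibitory factor binds LIFR, which pairs with gp130. Oncostatin M uses gp130 with OSMR and, in several settings, with LIFR, while interleukin 6, interleukin 11 and ciliary neurotrophic factor first bind receptor chains of their own, encoded by Il6ra, Il11ra1 and Cntfr. The bound receptors activate Janus kinases, which phosphorylate STAT3, and STAT3 induces Socs3, an inhibitor that shuts the same receptors off. In tumours these receptors are found on stromal, endothelial and immune cells as well as on some cancer cells.

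The genes of the family lie partly side by side in the mouse genome. On chromosome 11, 0 annotated genes start between Lif and Osm. On chromosome 15, Lifr and Osmr have 0 protein-coding genes starting between them. Lifr has 2 annotated promoter windows in RefSeq (GRCm38.p6), each from 250 bases before to 50 bases after a transcription start. Both are printed because Lifr is the member whose level differed, and that of Socs3 because it was the 1 window of 16, over the 9 members with an entry, that held a STAT match. Osm had no entry. Capitals mark matches to the STAT motif TTCNNNGAA and to the GC box GGGCGG, searched on both strands, of which 0 bases lay under more than 1 match.
Lifr, chr15:7129322-7129621, plus strand: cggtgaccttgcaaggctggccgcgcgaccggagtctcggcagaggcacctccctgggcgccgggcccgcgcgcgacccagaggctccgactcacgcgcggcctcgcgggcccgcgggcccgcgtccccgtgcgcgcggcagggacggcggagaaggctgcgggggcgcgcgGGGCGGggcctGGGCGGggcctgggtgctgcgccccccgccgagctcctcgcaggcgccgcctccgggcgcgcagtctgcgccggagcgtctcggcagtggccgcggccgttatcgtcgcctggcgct
Lifr, chr15:7140292-7140591, plus strand: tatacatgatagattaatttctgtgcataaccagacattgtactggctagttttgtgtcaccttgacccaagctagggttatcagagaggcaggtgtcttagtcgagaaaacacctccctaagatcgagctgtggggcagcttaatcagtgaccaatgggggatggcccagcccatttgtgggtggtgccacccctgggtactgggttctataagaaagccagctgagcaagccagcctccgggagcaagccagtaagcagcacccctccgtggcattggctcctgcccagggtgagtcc
Socs3, chr11:117969317-117969616, minus strand: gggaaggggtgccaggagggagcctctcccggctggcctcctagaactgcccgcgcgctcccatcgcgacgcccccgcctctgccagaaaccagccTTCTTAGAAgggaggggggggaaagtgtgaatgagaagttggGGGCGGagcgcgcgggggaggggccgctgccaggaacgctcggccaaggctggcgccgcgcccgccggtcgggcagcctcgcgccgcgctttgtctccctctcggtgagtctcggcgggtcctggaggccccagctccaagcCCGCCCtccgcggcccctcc

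The more upstream of the 2 printed Lifr windows is 81.3% G and C and holds 2 GC boxes, at 78 and 67 bases before its start. The downstream window is 53.3% G and C and holds 0. The STAT motif stood in 8.30% and the GC box in 35.7% of the 32851 promoter windows of the table. The core of the interferon-stimulated response element, searched on both strands as GAAA, any 2 bases and GAAA and bound by the complex that contains STAT2, stood in 3.44% of all windows and in 0 of the 16 windows of the family. The motif TATAAA stood in 13.6% of all windows and also in 0 of the 16. These matches describe the letters of each window only. The annotated Lifr gene begins at base 7090610 of chromosome 15, before both windows, so they may not cover every Lifr start. The sources used here do not say which of the Lifr starts the single Lifr probe set reads.

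Stat2 itself read 6.45, 6.48 and 6.33 in the Stat2 KO hosts, against 6.79, 6.70 and 6.70 in the WT hosts. The groups did not overlap, and the difference was -0.31 (SE 0.126, limma adjusted p = 0.532). The exons that its 1 probe set reads are unknown here and the implanted cells are not labelled as lacking Stat2, so this is a weak check of the labels. The 8 melanocyte markers averaged 11.2 to 11.6 in tumours of Stat2 KO hosts, against 11.4 to 11.7 in tumours of WT hosts, so the labelled melanoma tissue carried its pigment cell genes on every array. As a guide to unused probe sets, 1105 olfactory receptor genes had a median level of 5.21, and 95% of them read below 6.72. Probe sets differ in affinity, so this is a rough guide.

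Lifr read 6.98, 6.35 and 6.94 in tumours of Stat2 KO hosts, against 9.35, 8.57 and 7.28 in tumours of WT hosts, in replicate order. The groups did not overlap, but WT replicate 3 lay only 0.30 above the highest Stat2 KO tumour, and the WT tumours spanned 2.07 log2 units where the Stat2 KO tumours spanned 0.62. The means were 6.76 ± 0.350 in Stat2 KO hosts, against 8.40 ± 1.05 in WT hosts (SD, n = 3 each). The difference, Stat2 KO host minus WT host, was -1.64 (SE 0.385, 95% interval -2.48 to -0.80). This SE is drawn toward the spread of other genes by limma, so the interval is narrower than the Lifr values alone would give. The exact permutation p of Lifr was 0.1, the smallest that 3 against 3 tumours can give. The Stat2 KO mean lay close to 6.72, the level below which 95% of olfactory receptor genes read, and Stat2 KO replicate 2 lay below it, so Lifr was not clearly above background in Stat2 KO hosts and no fold is given. Of all 22180 genes, 2 had a lower difference.

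Lifr did not pass the threshold of 0.05 after Benjamini-Hochberg adjustment over all genes (limma adjusted p = 0.351). The adjusted threshold was passed by 0.00902% of all genes, which is 2 genes, and neither is of this family. WT replicate 3 and WT replicate 1 moved the Lifr value most. Without WT replicate 3 the difference was -2.20 and passed (limma adjusted p = 0.00763), and without WT replicate 1 it was -1.17 and did not (limma adjusted p = 0.635). WT replicate 3 was the lowest WT tumour for Lifr, so leaving it out had to widen the difference. Array weights gave WT replicate 3 a weight of 0.698 and WT replicate 2 one of 2.25. With them the Lifr difference was -1.65 and passed (limma adjusted p = 0.0370), in a fit where 257 genes passed, against 2 in the main fit. Over all alternatives its limma adjusted p ranged from 0.00763 to 0.874. In bulk tumours, fewer cells that express Lifr and less Lifr RNA per cell cannot be told apart.

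The WT tumours differed among themselves in Lifr more than in most genes. Its SD within the WT group, 1.05, was exceeded by 7 of 22180 genes, while the median SD of all genes was 0.153 in that group. Within the Stat2 KO group its SD of 0.350 was larger than that of 89.9% of genes, with a median over all genes of 0.181. The other 8 measured members had SDs of 0.131 to 0.377 in Stat2 KO tumours and of 0.038 to 0.196 in WT tumours.

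**Figure D1:**
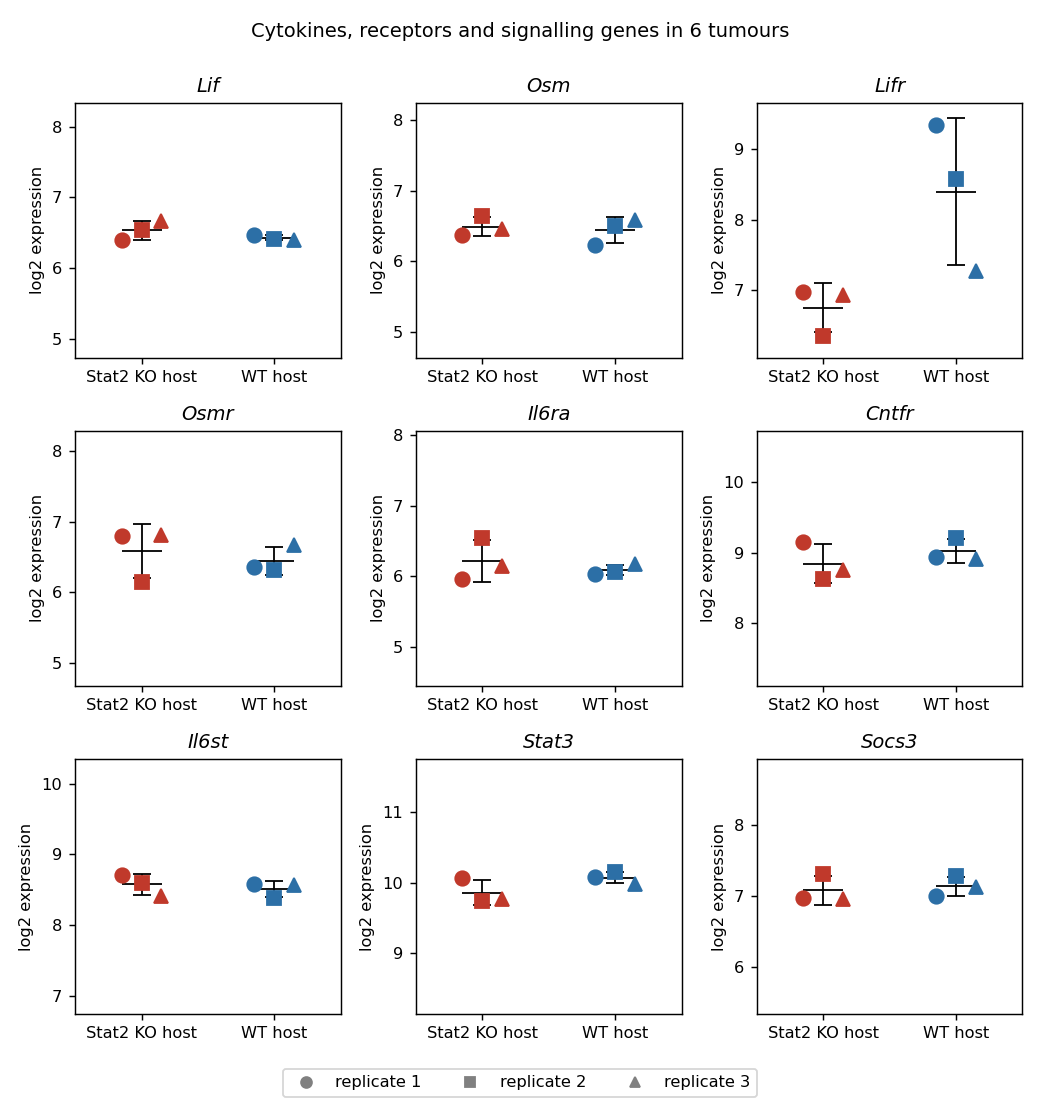
Log2 expression of the 9 measured members in each tumour, with Stat2 KO hosts in red and WT hosts in blue. Symbols mark the replicate number, black bars the mean and SD of 3 tumours, and every panel spans the same number of log2 units. Lifr is the 1 panel in which the groups do not overlap, with WT replicate 3 at 7.28 close to the Stat2 KO tumours.

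Neither ligand had groups that stood apart. Lif, which encodes leukemia inhibitory factor, read 6.40, 6.53 and 6.67 in Stat2 KO hosts, against 6.47, 6.42 and 6.40 in WT hosts. These groups overlapped, with a difference of 0.10 (SE 0.131, 95% interval -0.18 to 0.39, limma adjusted p = 0.811), which was 0.169 with Stat2 KO replicate 1 dropped and 0.039 with Stat2 KO replicate 3 dropped. Osm, which encodes oncostatin M, read 6.37, 6.64 and 6.46 in Stat2 KO hosts, against 6.23, 6.50 and 6.58 in WT hosts. Its difference was 0.05 (SE 0.144, 95% interval -0.26 to 0.37, limma adjusted p = 0.922), and it changed sign with median centring and without either of 2 tumours. The means of both ligands lay below 6.72, so neither ligand was shown to read above background.

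Il6st, the gp130 chain shared by all these cytokines, read 8.71, 8.60 and 8.41 in Stat2 KO hosts, against 8.58, 8.38 and 8.57 in WT hosts. The groups overlapped, with Stat2 KO replicate 1 the highest and WT replicate 2 the lowest tumour. The difference was 0.07 (SE 0.139, 95% interval -0.24 to 0.37, limma adjusted p = 0.894), and it changed sign with median centring and also when either Stat2 KO replicate 1 or WT replicate 2 was left out.

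Osmr, the chain that pairs with gp130 to bind oncostatin M, is the closest relative of Lifr in the family by place in the genome. It read 6.79, 6.15 and 6.81 in Stat2 KO hosts, against 6.36, 6.32 and 6.68 in WT hosts. Stat2 KO replicate 2 was the lowest of all 6 tumours and the other Stat2 KO tumours were the highest. The difference was 0.14 (SE 0.187, 95% interval -0.27 to 0.54, limma adjusted p = 0.826). With single tumours left out it ranged from 0.023 (Stat2 KO replicate 3 dropped) to 0.354 (Stat2 KO replicate 2 dropped). Dropping Stat2 KO replicate 1 gave 0.032, and dropping WT replicates 1, 2 and 3 in turn gave 0.090, 0.069 and 0.249. Its mean level of 6.52 over the 6 arrays exceeded that of 91.8% of olfactory receptor genes.

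Il6ra, which binds interleukin 6, read 5.96, 6.54 and 6.14 in Stat2 KO hosts, against 6.03, 6.07 and 6.17 in WT hosts. Stat2 KO tumours were both the lowest and the highest, and the difference was 0.13 (SE 0.160, 95% interval -0.22 to 0.48, limma adjusted p = 0.811). Without Stat2 KO replicate 2 it turned to -0.04. Cntfr, the membrane-anchored receptor of ciliary neurotrophic factor, read 9.15, 8.63 and 8.75 in Stat2 KO hosts, against 8.94, 9.21 and 8.91 in WT hosts. All 6 values lay above 6.72, the level below which 95% of olfactory receptor genes read, and the groups overlapped with a difference of -0.18 (SE 0.164, 95% interval -0.53 to 0.18, limma adjusted p = 0.750). Dropping Stat2 KO replicate 1 gave -0.331, dropping Stat2 KO replicate 2 gave -0.068 and dropping WT replicate 2 gave -0.081.

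Stat3, the transcription factor at the end of the pathway, read 10.06, 9.75 and 9.77 in Stat2 KO hosts, against 10.08, 10.15 and 9.99 in WT hosts. Stat2 KO replicates 2 and 3 lay below every WT tumour, while Stat2 KO replicate 1 lay among them. The difference was -0.21 (SE 0.141, 95% interval -0.52 to 0.09, limma adjusted p = 0.661). It was negative under all 15 alternatives, from -0.31 to -0.13. Genes brighter than the median gene, to which Stat3 belongs, had a median difference of -0.07.

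Socs3, the inhibitor that STAT3 induces, read 6.98, 7.32 and 6.95 in Stat2 KO hosts, against 7.00, 7.28 and 7.12 in WT hosts. The groups overlapped, with a difference of -0.05 (SE 0.148, 95% interval -0.37 to 0.27, limma adjusted p = 0.926), and leaving out single tumours turned its sign. A second, dimmer Socs3 probe set averaged 5.18 in Stat2 KO hosts, against 5.25 in WT hosts, a difference of -0.06.

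Over the 9 measured members, 4 were lower and 5 higher in Stat2 KO hosts, and their median difference was 0.05, beside 0.02 over all genes. Lifr was the 1 member with an unadjusted p under 0.05, a mark reached by 8.82% of all genes, and nothing is read from it because Lifr led to the choice of the family. Of the other 8 members, whose differences ranged from -0.21 to 0.14, 0 reached that mark in limma, 0 passed the adjusted threshold, and 0 had groups that did not overlap. Of all genes, 13.3% had groups that did not overlap, 5.11% lower and 8.23% higher in Stat2 KO hosts. With array weights Osmr, Cntfr and Stat3 also had an unadjusted p under 0.05, as did 5004 of all 22180 genes. Stat3 had one without Stat2 KO replicate 1, where 3260 genes did, and Osmr without Stat2 KO replicate 2, where 1469 did. The main fit had 1956 such genes. Nothing is read from these members. A p that misses the threshold does not show that these genes were equal between hosts, and the intervals give the differences that 3 tumours a side still allow.

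**Figure D2:**
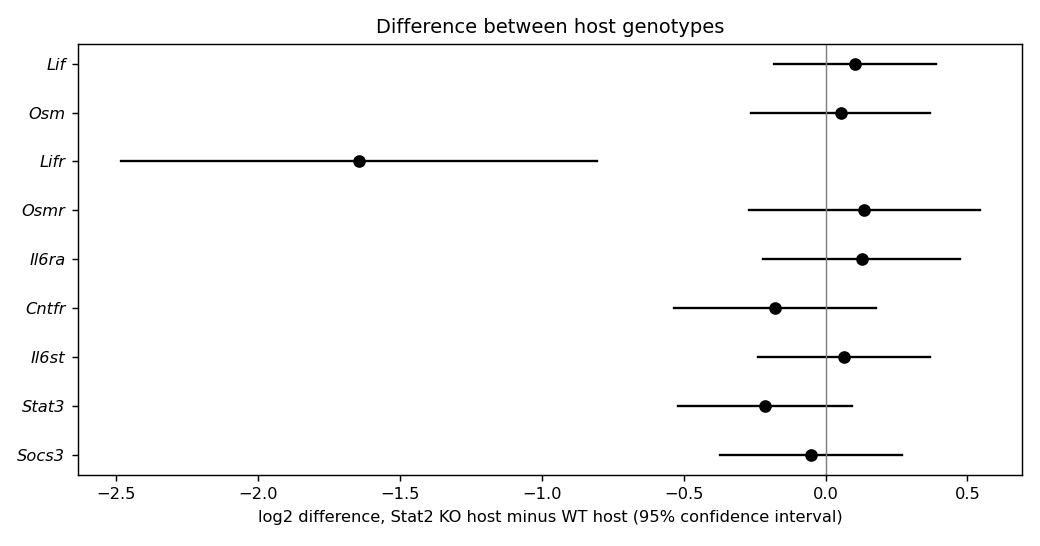
Log2 difference, Stat2 KO host minus WT host, for the 9 measured members, with points for the estimate and lines for the 95% interval of the limma fit (3 tumours a side). The interval of Lifr runs from -2.48 to -0.80, and those of the other 8 members include 0. The Lifr interval is drawn in by the spread of other genes and is narrower than the Lifr values alone would give.

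The genes whose pattern over the 6 tumours was most like that of Lifr were found by the mean absolute distance between log2 values after subtracting each gene's own mean. The search covered 10486 named genes brighter than the median gene, and Lifr itself deviated from its mean by 0.922 on average. The nearest was Slc7a8, an amino acid transporter, at a distance of 0.320. It read 8.27, 7.53 and 7.70 in Stat2 KO hosts, against 9.29, 9.35 and 7.89 in WT hosts. Sema3d, a secreted semaphorin, followed at 0.355, with 6.16, 6.30 and 5.89 in Stat2 KO hosts, against 8.16, 7.36 and 5.80 in WT hosts. In both genes WT replicate 3 lay in or below the range of the Stat2 KO tumours.

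Axl, a TAM receptor tyrosine kinase, was at a distance of 0.382 and read 7.19, 7.01 and 7.01 in Stat2 KO hosts, against 8.52, 8.47 and 7.84 in WT hosts. Its groups did not overlap, and its difference was -1.21 (SE 0.179, limma adjusted p = 0.133). Axl passed with the replicate block (limma adjusted p = 0.0410), with array weights (limma adjusted p = 0.00578) and without WT replicate 3 (-1.43, limma adjusted p = 0.00763). The adhesion molecule gene Sdk1, the transcriptional inhibitor gene Id2, the follistatin-like gene Fstl4, the Golgi mannosidase gene Man1a and Prr5, which encodes a protein bound to the kinase complex mTORC2, lay at 0.385 to 0.427. Their differences ranged from -0.90 to -0.82. Without WT replicate 1 the difference was -0.556 for Sdk1, -0.511 for Fstl4 and -0.460 for Sema3d, and without Stat2 KO replicate 2 it was -0.561 for Id2. Without WT replicate 3, Slc7a8 (-1.49), Sema3d (-1.64), Fstl4 (-1.29) and Prr5 (-1.19) passed, with limma adjusted p from 0.0135 to 0.0233, and with array weights Slc7a8 and Prr5 passed (limma adjusted p = 0.0412 and 0.0325). WT replicate 3 was the lowest of the WT tumours in all 8 of these genes, as it was for Lifr, and WT replicates 1 and 2 were the highest of all 6 tumours in each. With 6 values per gene and this many genes searched, some close matches arise in any data. The genes were chosen for this likeness, with WT replicate 3 the lowest WT tumour, so leaving it out had to widen their differences. Their p-values, in the main fit and in the alternatives, therefore describe the chosen genes and are no independent test.

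**Figure D3:**
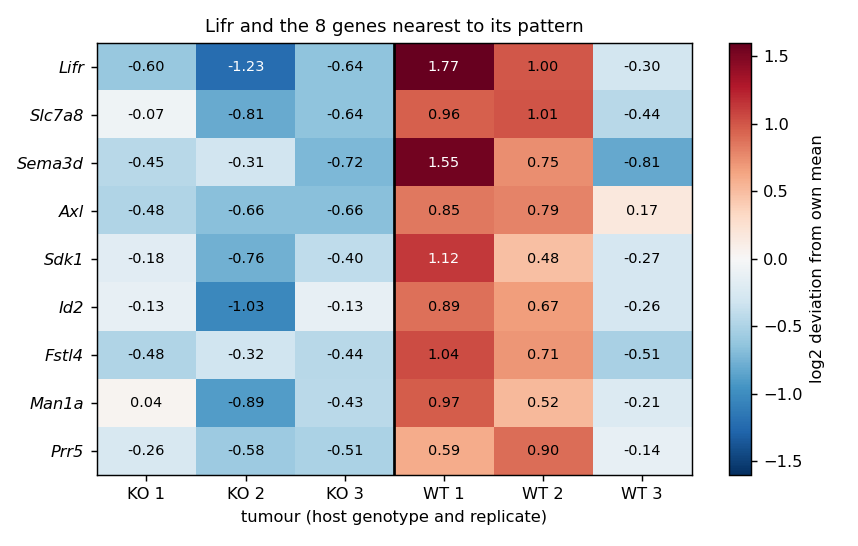
Log2 deviation of each tumour from the gene's own mean over 6 tumours, for Lifr and the 8 genes nearest to it, in order of distance. Columns are the tumours, Stat2 KO hosts left of the black line and WT hosts right of it, red is above and blue below the mean. WT replicates 1 and 2 are red in every row, and WT replicate 3 is blue for Lifr at -0.30 and for each gene but Axl.

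Other genes of the pathway were taken from lists of ligands, related receptors, Janus kinases, STATs, inhibitors and STAT3-induced genes. Of 64 listed genes, 59 had a probe set of their own and were analysed. Of the 59, 36 were lower and 23 higher in Stat2 KO hosts, with a median difference of -0.05. With adjustment over all genes 0 passed in limma. An unadjusted p under 0.05 was reached by 4 genes in the lower direction, where 3.48% of all genes reached it, and by 1 gene in the higher direction, where 5.34% did.

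Among the 8 measured ligands of the wider family, 6 were higher and 2 lower, with a median of 0.03. Il27, a subunit of interleukin 27, which signals through gp130 with Il27ra, differed by 0.36 (SE 0.157, 7.31 ± 0.265 in Stat2 KO hosts, against 6.95 ± 0.133 in WT hosts, n = 3 each, limma adjusted p = 0.553). Il27ra differed by 0.30 with groups that did not overlap (limma adjusted p = 0.582). Il31ra, which pairs with Osmr to bind interleukin 31, differed by 0.28, also without overlap (limma adjusted p = 0.602), but averaged only 5.88 in Stat2 KO hosts, against 5.60 in WT hosts. Without Stat2 KO replicate 2 these differences were 0.231 for Il27, 0.190 for Il27ra and 0.156 for Il31ra. The 7 measured related receptors had a median of 0.11, with 6 higher and 1 lower, and single tumours left out moved it between 0.048 (Stat2 KO replicate 3) and 0.254 (WT replicate 1). The ligand median turned to -0.038 when WT replicate 1 was dropped. Quantile normalization and cyclic loess gave medians of 0.061 and 0.028 for the receptors and of -0.023 and -0.042 for the ligands. Only 1 of the 7 receptors and 2 of the 8 ligands were brighter than the median gene. Of all genes 46.0% were lower in Stat2 KO hosts, against 65.3% of genes brighter than the median gene. Dimmer genes were therefore mostly higher. Il6, named after its values were seen, averaged 3.90 in Stat2 KO hosts, against 3.87 in WT hosts, below the median olfactory receptor gene, so tumour interleukin 6 RNA was not shown to be detected.

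All 3 measured Janus kinases were lower, with a median of -0.17, beside 65.3% lower and a median of -0.07 over all genes brighter than the median gene. The median of the Janus kinases moved to -0.034 if Stat2 KO replicate 2 was dropped, to -0.060 if WT replicate 1 was and to -0.262 if Stat2 KO replicate 1 was. It was -0.087 and -0.077 after quantile normalization and cyclic loess. Jak1, the main kinase of gp130, differed by -0.24 (limma adjusted p = 0.651), and by -0.128 without Stat2 KO replicate 2. All 4 other measured STATs were lower, with a median of -0.30, or -0.197 without WT replicate 2. Stat5a differed by -0.37 (7.45 ± 0.057 in Stat2 KO hosts, against 7.83 ± 0.304 in WT hosts, n = 3 each, limma adjusted p = 0.547), Stat5b by -0.31 and Stat6 by -0.29, and of these Stat5a alone had groups that did not overlap. Dropping WT replicate 2 gave -0.211 for Stat5a and -0.183 for Stat6, dropping Stat2 KO replicate 3 gave -0.188 for Stat6, and dropping Stat2 KO replicate 1 gave -0.476 for Stat5b. Of 10 inhibitors, 8 were lower and 2 higher, with a median of -0.06, and Ptpn2, a phosphatase of Janus kinases and STATs, differed by -0.24 (limma adjusted p = 0.638). Dropping Stat2 KO replicate 2 gave an inhibitor median of -0.029 and a Ptpn2 difference of -0.128, and dropping Stat2 KO replicate 1 gave a median of -0.094. Jak1, Stat5a, Stat5b, Stat6 and Ptpn2 passed the adjusted threshold in 0 of the 15 alternatives.

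The STAT3-induced list held 27 measured genes, 18 lower and 9 higher, with a median of -0.09. Those with an unadjusted p under 0.05 were Timp1, Bcl6 and Saa3, all lower, where 3.48% of all genes reached that mark in the lower direction. The list median was -0.143 once Stat2 KO replicate 1 was dropped and -0.051 once Stat2 KO replicate 3 was. Timp1, an inhibitor of metalloproteases, averaged 6.69 ± 0.420 in Stat2 KO hosts, against 7.21 ± 0.089 in WT hosts, a difference of -0.52 (limma adjusted p = 0.509). The repressor gene Bcl6 differed by -0.41 and the acute phase gene Saa3 by -0.47, both with groups that did not overlap (limma adjusted p = 0.497 and 0.538). Of all genes, 5.11% had groups that did not overlap in the lower direction. Bcl6 read below 6.72, the level below which 95% of olfactory receptor genes read, in every tumour. Saa3 did so in all but WT replicate 3. The haptoglobin gene Hp differed by -0.40 with overlap. Timp1 differed by -0.326 once Stat2 KO replicate 2 was dropped, Saa3 by -0.234 once WT replicate 3 was and Hp by -0.207 once WT replicate 1 was. The mean level of the list was 6.98 to 7.12 in Stat2 KO hosts, against 7.14 to 7.18 in WT hosts, a difference of -0.10, and 65.3% of all genes brighter than the median gene were also lower.

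**Figure D4:**
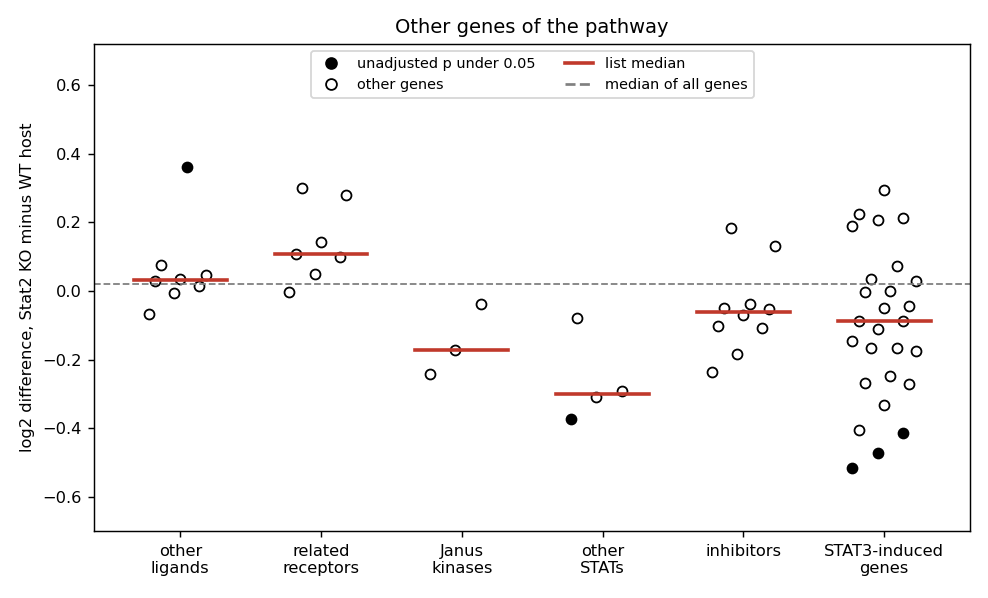
Log2 difference, Stat2 KO host minus WT host, of each measured gene in 6 lists of the pathway, 59 genes in all. Filled points have an unadjusted p under 0.05 (5 genes), red lines are list medians and the dashed line is the median of all genes, 0.02. Medians run from -0.30 for the other STATs to 0.11 for the related receptors.

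Several cell types of a tumour can carry Lifr, and their markers were read beside it. Of all genes 46.0% were lower in Stat2 KO hosts, 3.48% with an unadjusted p under 0.05. Genes brighter than the median gene, which include 7 of the 11 fibroblast and 4 of the 13 macrophage markers, were lower in 65.3%. Fibroblast markers were lower in 10 of 11 genes, 4 of them with an unadjusted p under 0.05. Their median was -0.39, or -0.199 without Stat2 KO replicate 2, and their mean level was 6.53 to 6.94 in Stat2 KO hosts, against 6.96 to 7.28 in WT hosts. Dcn, the proteoglycan decorin, differed by -0.94 (limma adjusted p = 0.351), and Lum, which encodes lumican, by -1.21 with groups that overlapped (limma adjusted p = 0.462). Dcn read below 6.72, the olfactory guide level, in every tumour, and Lum in all but WT replicates 1 and 2. Without WT replicate 1 Lum differed by -0.742, and without WT replicate 3 by -1.76, which passed (limma adjusted p = 0.0118). WT replicate 3 was the lowest WT tumour for Lum too, so leaving it out had to widen that difference. Macrophage markers were lower in 11 of 13 genes, again 4 with an unadjusted p under 0.05. Their median was -0.21, and -0.294 to -0.177 with single tumours left out. The smallest p-values of the list were those of C1qb (-0.95, limma adjusted p = 0.196) and Msr1 (-0.88, limma adjusted p = 0.291), both without overlap. Msr1 and C1qc, another of the 4, read below 6.72 in every tumour. The mean level of the list was 6.12 to 6.29 in Stat2 KO hosts, against 6.37 to 6.56 in WT hosts. In both lists WT replicate 3 was the lowest WT tumour and the 3 Stat2 KO tumours lay below it. For fibroblasts the gap was narrow, with 6.94 in Stat2 KO replicate 1, against 6.96 in WT replicate 3. WT replicate 3 was also the lowest WT tumour for endothelial, adipocyte, Schwann cell, melanocyte and skeletal muscle markers. The part of any of these cell types in the Lifr difference was not tested.

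Endothelial markers, by contrast, were lower in 7 and higher in 6 of 13 genes, at 6.43 to 6.61 in Stat2 KO hosts, against 6.53 to 6.61 in WT hosts. Cdh5, the endothelial cadherin, was the 1 gene of that list with an unadjusted p under 0.05, at -0.45, and at -0.194 without Stat2 KO replicate 2. Melanocyte markers were lower in 7 of 8 genes, with a median of -0.09, and 0 of them had an unadjusted p under 0.05. All 8 were brighter than the median gene, and of such genes 65.3% were lower, with a median of -0.07. Adipocyte markers had a median of -0.16 over 7 genes and the 3 measured Schwann cell markers one of -0.30, which were -0.042 and -0.135 without Stat2 KO replicate 3. Markers of skeletal muscle, neutrophils, T cells and keratinocytes had medians of 0.20, 0.13, 0.06 and 0.13. An unadjusted p under 0.05 was reached by 1 skeletal muscle marker, Myh4, at 0.60 without overlap (limma adjusted p = 0.351). Myh4 read below 6.72 in every tumour, and 5.34% of all genes reached that mark in the higher direction. The Schwann cell marker Pmp22 reached it at -0.46 (limma adjusted p = 0.517), and 0 adipocyte, neutrophil, T cell and keratinocyte markers did. In mean level, skeletal muscle markers stood at 6.07 to 6.27 in Stat2 KO hosts, against 5.98 to 6.06 in WT hosts. Neutrophil markers stood at 5.492 to 5.595, against 5.332 to 5.491, so all Stat2 KO tumours lay higher in both lists, by narrow gaps. The nearest tumours were Stat2 KO replicate 1 and WT replicate 3 for neutrophils (5.492 and 5.491). For skeletal muscle they were Stat2 KO replicate 1 and WT replicate 2 (6.07 and 6.061). All neutrophil markers read below 6.72 in every tumour. Their median was 0.050 after quantile normalization and 0.038 after cyclic loess. With Stat2 KO replicate 2 left out the melanocyte median was 0.042, the T cell median -0.008 and the keratinocyte median 0.034. The endothelial median of -0.02 turned to 0.039 if Stat2 KO replicate 1 was dropped, to 0.019 if Stat2 KO replicate 2 was, and to 0.009 if WT replicate 1 was.

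**Figure D5:**
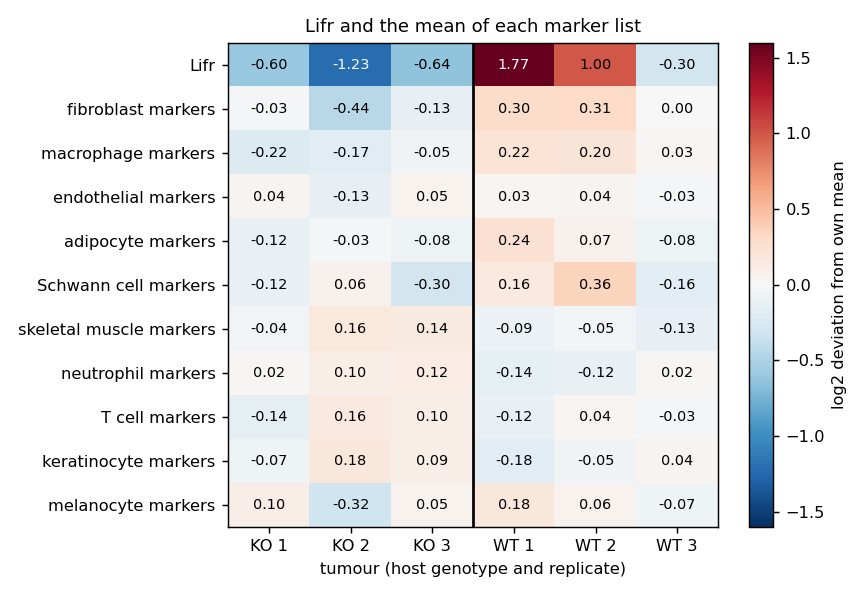
Log2 deviation of each tumour from the mean over 6 tumours, for Lifr and for the average of 10 marker lists. Columns are the tumours, Stat2 KO hosts left of the black line and WT hosts right of it. Fibroblast, macrophage, adipocyte and Schwann cell markers are lower in every Stat2 KO tumour than in WT replicates 1 and 2. WT replicate 3 lies below Stat2 KO replicate 2 for adipocyte markers. For Schwann cell markers it lies below Stat2 KO replicates 1 and 2, so the groups of both lists overlap. Neutrophil and skeletal muscle markers are higher in every Stat2 KO tumour than in WT replicates 1 and 2. For neutrophil markers WT replicate 3, at 0.018, nearly meets Stat2 KO replicate 1, at 0.019. An average over a list spans less than single genes do, so the sizes of the Lifr and list deviations are not compared.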

How the data were processed

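The authors deposited log2 values for each probe set and array. Per the submitters' processing notes, they used RMA in Affymetrix Expression Console 1.3.1. Apart from RefSeq for the promoter windows (GRCm38.p6), no source used here names a genome build, and neither scan dates nor detection calls were used. The number of arrays limits the precision.

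Of 41345 probe sets, 23521 name 1 gene, 1814 several and 16010 none in the platform annotation, and each gene was read from its brightest single-gene probe set. Differences, Stat2 KO host minus WT host, were fitted over all 22180 genes with limma 3.58.1 in R 4.3.3 (lmFit, eBayes with an intensity trend), two-sided, with Benjamini-Hochberg adjustment and a threshold of 0.05. The fit had 4 residual and 8.139 prior degrees of freedom, and all SEs, 95% intervals and adjusted p-values come from it. It was also run on simulated data with the same spread in both groups. That run cannot speak to Lifr, whose spread differed between the groups. An exact permutation test of 3 against 3 tumours cannot give a p below 0.1.

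The members and lists were chosen with earlier results of these data known. Named were the members, Stat2, up to 4 genes per list with the smallest p, and the 8 genes nearest to Lifr. The alternatives were a replicate block, 3 other normalizations, a filter on dim genes, the mean of a gene's probe sets, 2 other variance models, array weights and each array left out. Promoter sequences and gene order are from RefSeq.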

Additional observations from a re-analysis of the deposited data

How the results depend on the processing

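Lifr was lower in Stat2 KO hosts under all 15 alternatives. It passed with array weights (-1.65, limma adjusted p = 0.0370), and with single arrays left out its difference ranged from -2.20 to -1.17. The genes called over the whole table numbered 0 after quantile normalization and after cyclic loess (with 1683 and 1678 genes at an unadjusted p under 0.05), 1 without the intensity trend, 257 with array weights and 0 to 17 with single arrays left out, against 2. The replicate block gave 3 called genes and a limma adjusted p of 0.166 for Lifr. Same-numbered tumours correlated at 0.240, 0.079 and 0.030 in their deviations, so the numbers were not taken as pairs. Members with an unadjusted p under 0.05 numbered 4 with array weights and 1 to 2 with single arrays left out, against 1. Over all genes that mark was reached by 5004 with array weights and by 1177 to 3260 with single arrays left out, against 1956. The median member difference was -0.02 after median centring and -0.05 to 0.09 with single arrays left out. Of 119 refits of the other members, 109 kept their direction and side of the threshold. The sign turned to -0.009 for Il6st and -0.022 for Osm after median centring. Without Stat2 KO replicate 1 it turned for Il6st (-0.005) and Socs3 (0.00056), without Stat2 KO replicate 2 for Il6ra (-0.036) and Osm (-0.023), and without Stat2 KO replicate 3 for Socs3 (0.012). Without WT replicate 1 it turned for Osm (-0.050), and without WT replicate 2 for Il6st (-0.00013) and Socs3 (0.021). Il6, outside the family, turned to -0.044 after median centring, -0.004 after cyclic loess and -0.043 and -0.00093 without WT replicates 1 and 2. The causes were not tested. The list medians and the genes outside the family were added to the alternatives after the data had been seen. With single arrays left out, the differences ranged from 0.023 to 0.354 for Osmr, -0.331 to -0.068 for Cntfr, -0.036 to 0.254 for Il6ra, -0.005 to 0.148 for Il6st, -0.050 to 0.125 for Osm, -0.170 to 0.021 for Socs3 and -0.043 to 0.135 for Il6. Signal over background was not measured, which limits the dim members Lif, Osm, Osmr and Il6ra.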
